A study of Mus musculus with 7 samples.

Results

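The genes described here encode enzymes that write or erase methylation of lysine 4 on histone H3 (H3K4). There are 10 of them, out of 21631 protein-coding genes on mouse chromosomes 1 to 19 and X. They comprise 6 methyltransferase genes (Kmt2a, Kmt2b, Kmt2c, Kmt2d, Setd1a and Setd1b) and 4 demethylase genes (Kdm5a, Kdm5b, Kdm5c and Kdm1b). They were chosen by name, and what was measured is the chromatin state inside each gene and within 20 kb of its ends, called its window. The cells were mouse leukaemia cells of BALB/c background, grown from bone marrow in which mutant CSF3R, a cytokine receptor, and mutant CEBPA, a myeloid transcription factor, were expressed by retrovirus. They were cultured for 48 h with 4 nM GSK-LSD1, an inhibitor of the H3K4 demethylase LSD1 (gene symbol Kdm1a), or with DMSO, its solvent control. Both arms carried both mutant genes, and the sources used here do not say how many mice the cells came from or whether they were clonal. Chromatin immunoprecipitation was sequenced for H3K4me1, H3K4me3 and H3K27Ac, with 1 library per mark and treatment and 1 input library. The 3 marks of each treatment were combined by the authors into 1 segmentation, in which every 200 bp bin has a state from E1 to E6.

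Methyltransferases of the KMT2 and SETD1 families work in complexes that share the core subunits WDR5, RBBP5, ASH2L and DPY30. SETD1A and SETD1B place much of the trimethylation at active promoters, KMT2A and KMT2B bind unmethylated CpG-rich promoters through a CXXC domain, and KMT2C and KMT2D monomethylate enhancers. The KDM5 enzymes remove tri- and dimethylation with iron and 2-oxoglutarate, while LSD1 and its relative LSD2 (gene symbol Kdm1b) remove mono- and dimethylation with a flavin cofactor. In blood, KMT2A is best known from the chromosome translocations that join it to other genes in acute leukaemia. The marks measured are therefore the products and substrates of these enzymes, but the values below say where states lay at the enzymes' own genes, not how much enzyme the cells made or how active it was.

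No source used here tells which marks make up a state, so states keep their numbers and are told apart by position. E3, the state with the largest coverage, is called background, and every other state marked. E5 covered gene ends at 10.1 times its share of the genome in GSK-LSD1 and 13.3 times in DMSO, and E6 at 7.85 and 9.45 times. These states are counted together as transcription start site (TSS) type. Equal numbers in both segmentations do not prove equal marks. With 1 segmentation per treatment there is no replicate and no test of any difference, and the depth behind the segmentations is unknown. The 95% intervals given below cover the counting of bins only. As a check of the label, 7 of 10 granulocyte and myeloid progenitor markers carried a TSS-type state at an end in GSK-LSD1 and 3 of 10 in DMSO (Prtn3, Spi1 and Cebpa). The treated cells added Mpo, Ctsg, Itgam and Fcgr3. Of all 21631 protein-coding genes, 11186 had such a state at an end in DMSO, a larger share than 3 of 10. The DMSO count is thus no support for the label, and the share over all genes in GSK-LSD1 is not given here. Of 8 B and T lymphocyte markers, 1 (Cd79a) had such a state in both, and 3 of 4 erythroid markers had one in both; of 4 stroma and liver markers, 0 had one in GSK-LSD1 and 1 (Apoa1) in DMSO. The part of such other cell types in the results was not tested.

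Promoter sequences of 4 of the genes are shown because their starts stand for the 3 patterns described below. Kmt2a and Kdm5c had E6 at the start in GSK-LSD1 and E5 in DMSO. Setd1a had E6 in both and a long domain, and Kdm1b had E5 in both with no E6 at its start. Each runs from 250 bases before to 50 bases after the start, read 5′ to 3′ on the gene's strand, from RefSeq (GRCm38.p6), with every CG in capitals.
Kmt2a, chr9:44881240-44881539, minus strand: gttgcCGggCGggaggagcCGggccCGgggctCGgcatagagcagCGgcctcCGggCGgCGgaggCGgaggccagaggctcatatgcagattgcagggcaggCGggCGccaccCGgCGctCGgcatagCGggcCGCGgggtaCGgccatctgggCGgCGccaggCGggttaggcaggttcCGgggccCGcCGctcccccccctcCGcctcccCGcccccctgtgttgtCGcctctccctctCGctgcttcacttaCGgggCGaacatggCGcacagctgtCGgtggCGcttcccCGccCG
Kdm5c, chrX:152232977-152233276, plus strand: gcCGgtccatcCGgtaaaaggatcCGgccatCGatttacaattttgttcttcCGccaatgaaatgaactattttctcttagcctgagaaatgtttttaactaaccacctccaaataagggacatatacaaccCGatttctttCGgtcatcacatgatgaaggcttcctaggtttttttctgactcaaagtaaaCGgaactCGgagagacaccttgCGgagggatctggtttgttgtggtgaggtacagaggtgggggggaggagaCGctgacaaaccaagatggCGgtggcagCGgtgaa
Setd1a, chr7:127777139-127777438, plus strand: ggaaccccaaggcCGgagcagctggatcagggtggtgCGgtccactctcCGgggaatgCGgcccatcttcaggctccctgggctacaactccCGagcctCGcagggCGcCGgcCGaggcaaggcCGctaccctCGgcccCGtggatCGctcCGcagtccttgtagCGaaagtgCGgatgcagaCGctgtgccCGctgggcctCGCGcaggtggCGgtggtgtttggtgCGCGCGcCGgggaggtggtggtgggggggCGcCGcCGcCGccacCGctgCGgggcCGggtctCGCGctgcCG
Kdm1b, chr13:47043249-47043548, plus strand: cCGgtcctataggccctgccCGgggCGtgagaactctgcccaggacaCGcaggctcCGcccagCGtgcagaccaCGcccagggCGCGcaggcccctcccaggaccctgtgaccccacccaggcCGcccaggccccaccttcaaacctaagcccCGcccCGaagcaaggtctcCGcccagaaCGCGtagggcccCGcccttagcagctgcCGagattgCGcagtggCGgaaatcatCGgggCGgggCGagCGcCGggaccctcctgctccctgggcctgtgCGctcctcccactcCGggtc

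The table of promoters held 7 of the 10 genes, and these 7 spanned a wide range of CpG content. The Kmt2c promoter had 56 CG in its 300 bases at 88% G and C, more CG than 99.8% of the 17274 promoters in the table. The Kmt2a and Setd1a promoters followed with 36 and 35 CG, and those of Kmt2d and Kdm1b had 27 and 26. The Kdm5b promoter had 17 CG and the Kdm5c promoter 13, close to the median of 14 over all promoters. Promoters rich in CG, such as those of Kmt2c and Kmt2a, and the Kdm5c promoter with its near-median count, were thus all among those with E6 at the start in GSK-LSD1. Motifs were searched on both strands by their letters. CGCG, a pair of adjacent CG, was in 5 of 7 of these promoters (49.99% of all promoters), AATC in 5 of 7 (71.8%) and GGAA, the core of ETS factor sites, in 6 of 7 (95.7%). The CCAAT box letters were in 1 of 7, that of Kdm5c (39.4%). The letters TATAAA (13.4%), TTGCGCAA (0.214%), a C/EBP-type palindrome, and GAGGAAGT (3.19%), an ETS-type sequence that contains GGAA, were in 0 of 7.

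Across the 10 windows, 5302 bins or 1060.4 kb with no bin shared between genes, TSS-type states covered more in the treated cells. They covered 157.2 kb in GSK-LSD1 and 114.8 kb in DMSO, or 14.8% (95% Wilson interval 13.9 to 15.8) and 10.8% (10.02 to 11.7) of the bins. The ratio was 1.37 (1.24 to 1.51), below the ratio of 1.65 over the whole genome. The TSS-type area was larger in GSK-LSD1 in 10 of 10 genes, as it was in 66.8% of all protein-coding genes and in 93.7% of the 11186 genes that had a TSS-type state at an end in DMSO. At least 1.5 times the DMSO area was reached by 3 of 10 genes, against 33.3% of all protein-coding genes and 44.6% of those with a TSS-type end. The median change was 3.9 kb in these genes, 1.4 kb over all genes and 3.2 kb over those with a TSS-type end. Without bins within 2.5 kb of another gene's end 5 of 10 reached 1.5 times, and with a limit of 2-fold 0 of 10 passed. No share over all genes is given for these 2 settings, so these counts cannot be set beside the shares above. A count of 3 of 10 is close to the share over all genes and is no result about the H3K4 enzyme genes.

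The 2 TSS-type states differed in direction. E6 covered 89.8 kb in GSK-LSD1 and 17.8 kb in DMSO, a ratio of 5.04 (4.03 to 6.31), against 9.58 in the genome. Without bins near ends of other genes the E6 ratio was 7.73. E5 covered 67.4 kb in GSK-LSD1 and 97 kb in DMSO, a ratio of 0.695 (0.608 to 0.794), against 0.774 in the genome. By net area the difference lay in E6, but 57.2 kb of the E6 in GSK-LSD1 was E5 in DMSO and so already TSS-type. Of the area that became TSS-type in GSK-LSD1, more was E5 than E6. E5 took 24 kb from E4 and 7 kb from E2, and E6 took 14.2 kb from E4, 0.8 kb from E2 and 0.8 kb from E1. With E5 alone 0 of 10 genes were at least 1.5 times larger and 5 were at least 1.5 times smaller. At least 1.5 times the E6 area was found in 9 of 10 genes (51.4% of all protein-coding genes, 76.3% of those with a TSS-type end), and a larger E6 area of any size in 10 of 10 (55.2% and 80.7%). An E5 area at least 1.5 times smaller was found in 5 of 10 genes, against 23.8% of all genes and 35.4% of those with a TSS-type end. In DMSO, 5 of the 10 windows (Kmt2a, Kmt2b, Kmt2c, Kdm5c and Kdm1b) held no E6 at all; in GSK-LSD1 all 10 held some. Over all protein-coding genes, 44.7% of windows held no E6 in GSK-LSD1 and 80.7% held none in DMSO; over genes with a TSS-type end the shares were 19.1% and 70.1%.

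**Figure D1:**
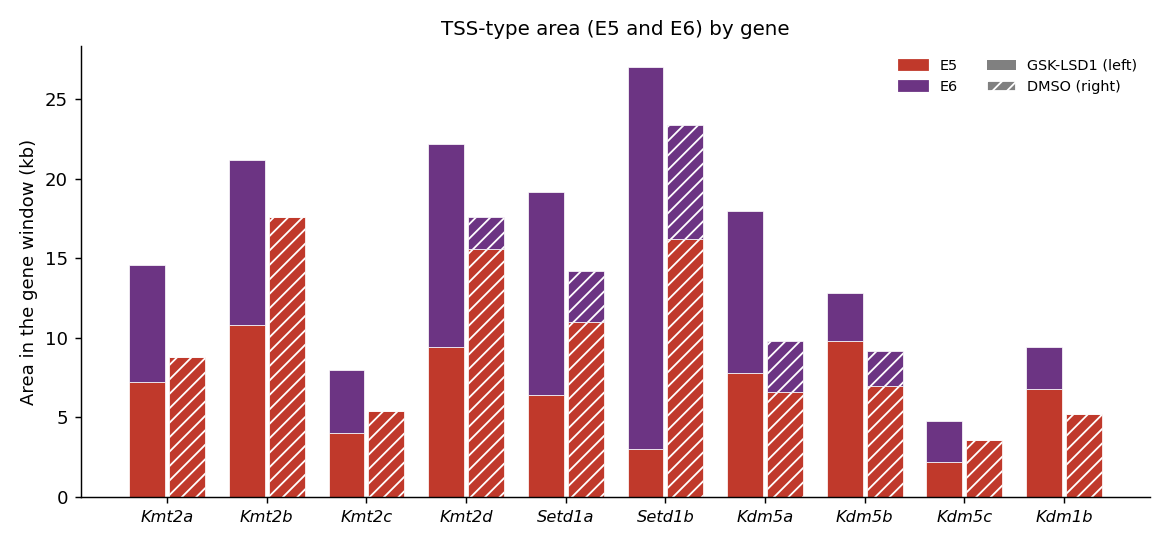
Area (kb) of the TSS-type states E5 and E6 in the window of each gene, in GSK-LSD1 (left bar, plain) and DMSO (right bar, hatched), 1 segmentation per treatment. Every left bar is the taller of its pair, with Setd1b highest at 27 kb in GSK-LSD1 and 23.4 kb in DMSO, and the E6 part is larger on the left in all 10 genes.

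Kmt2a (chr9:44803355-44881352, GRCm38, transcribed on the minus strand) encodes the methyltransferase MLL1, which maintains Hox gene expression. Its window had 14.6 kb of TSS-type states in GSK-LSD1 and 8.8 kb in DMSO, a ratio of 1.66, 1 of the 3 that reached 1.5. E6 made up 7.4 kb of this in GSK-LSD1 and was absent in DMSO, while E5 covered 7.2 and 8.8 kb. The domain over its start was 9 kb long in GSK-LSD1 (chr9:44875601-44884600) and 6 kb in DMSO (chr9:44877601-44883600), reaching further on both sides. Of the longer domain, 5 kb was E6. Inside the gene, centred 12.9 kb downstream of the start, a region of 2.4 kb (chr9:44867201-44869600) was E6 throughout in GSK-LSD1, where DMSO had 1 kb of E5 (chr9:44868201-44869200). No end of another protein-coding gene lay within 2.5 kb of either region, and the nearest, that of Atp5l, was 31959 bp from the start.

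Kmt2b (chr7:30568855-30589056) encodes MLL2, the closest relative of KMT2A. Its TSS-type area was 21.2 kb in GSK-LSD1 and 17.6 kb in DMSO, a ratio of 1.20. E6 covered 10.4 kb in GSK-LSD1 and none in DMSO, and E5 covered 10.8 and 17.6 kb. The reference table gives no start for this gene; a TSS-type domain lay at its upper end (the end with the higher coordinate), and was 5.2 kb in GSK-LSD1 and 4.2 kb in DMSO. That end lay 624 bp from the annotated end of Zbtb32, a zinc finger gene, so the domain cannot be assigned to either gene. Most of the area lay below the gene, where GSK-LSD1 had 1 region of 15.4 kb (chr7:30550601-30566000) and DMSO had 3 regions of 3.6, 4.4 and 4.2 kb. Ends of Hspb6, Igflr1, Lin37, Proser3, Psenen and U2af1l4 lay in this stretch or within 2.5 kb of it. Above the gene, 3 E5 regions of 0.2 to 0.6 kb in DMSO were E4 in GSK-LSD1, and 1 E5 region of 0.6 kb in GSK-LSD1 (chr7:30600401-30601000) was E4 in DMSO. With all bins within 2.5 kb of another gene's end left out, 52.0% of the window, the TSS-type area was 2.2 kb in GSK-LSD1 and 1.4 kb in DMSO.

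Kmt2c (chr5:25271795-25498855, minus strand) encodes MLL3, a monomethyltransferase of enhancers, and is the longest of the genes. Its TSS-type area was small for a window of 267.4 kb, at 8 kb in GSK-LSD1 and 5.4 kb in DMSO, a ratio of 1.48 that lies just under 1.5. The start domain took most of it, with 7.6 kb in GSK-LSD1, 3.6 kb of it E6, and 5.4 kb of E5 in DMSO. A further 0.4 kb of E6 (chr5:25404601-25405000), 94 kb downstream of the start, was found in GSK-LSD1 at bins that were E4 in DMSO. Its window held no background in the treated cells: E3 covered 0 kb of the window in GSK-LSD1 and 86.4 kb in DMSO, in stretches of 64.6 and 21.8 kb inside the gene. Of that area, 80.2 kb was E2, the broad marked state, in GSK-LSD1.

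Kmt2d (chr15:98831669-98874077, minus strand) encodes MLL4, the partner paralogue of KMT2C at enhancers. Its TSS-type area was 22.2 kb in GSK-LSD1 and 17.6 kb in DMSO, a ratio of 1.26. E6 covered 12.8 and 2 kb, and E5 covered 9.4 and 15.6 kb. The start domain was 7.8 kb in GSK-LSD1, 5 kb of it E6, and 6.8 kb in DMSO, 1.8 kb of it E6. At the far end of the gene, near an end of Prkag1, a 6.4 kb region in GSK-LSD1 had 5.6 kb of E6, where DMSO had regions of 1.2 and 4.6 kb that held 0.2 kb of E6 between them.

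Setd1a (chr7:127777389-127800122, plus strand) encodes an enzyme that trimethylates promoters. Its TSS-type area was 19.2 kb in GSK-LSD1 and 14.2 kb in DMSO, a ratio of 1.35, and E6 covered 12.8 and 3.2 kb of it. The start domain was 14.2 kb in GSK-LSD1 and 7.2 kb in DMSO, longer than those of 96.2% and 92.5% of genes with an end domain. In GSK-LSD1 this domain ran without a break past ends of Orai3 and Fbxl19 in or within 2.5 kb of it, where DMSO had a separate region of 3.6 kb. The end of Orai3, a calcium channel gene, lay 2239 bp from the Setd1a start.

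Setd1b (chr5:123142040-123168630) encodes the SETD1A paralogue and had the largest TSS-type area of the 10 genes, at 27 kb in GSK-LSD1 and 23.4 kb in DMSO. The ratio of 1.15 was the lowest of the 10. The states within that area differed most here, with 24 kb of E6 and 3 kb of E5 in GSK-LSD1, against 7.2 kb of E6 and 16.2 kb of E5 in DMSO. The domain at its lower end was 22.8 kb long in GSK-LSD1 (chr5:123124801-123147600), with 21.8 kb of E6, and 13 kb in DMSO (chr5:123135001-123148000), with 7.2 kb of E6. Either domain was longer than those of 99.4% of genes. An end of Rhof, a small GTPase gene, lay 232 bp away, so the domain cannot be assigned to 1 of the 2 genes. In GSK-LSD1 it took in the ground that held 4 separate E5 regions of 0.2 to 5.2 kb in DMSO.

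Kdm5a (chr6:120364099-120444574) encodes a demethylase that was first found as a binding partner of the retinoblastoma protein. It had the largest relative gain of TSS-type area, 18 kb in GSK-LSD1 and 9.8 kb in DMSO, a ratio of 1.84. E6 covered 10.2 and 3.2 kb, and E5, unlike at most of the genes, was also larger, at 7.8 and 6.6 kb. The domain at its lower end, 270 bp from an end of Ccdc77, was 7 kb in GSK-LSD1 and 4.8 kb in DMSO. Regions with no TSS-type counterpart in DMSO lay inside the gene, with 0.4 kb at chr6:120369001-120369400 and 0.6 kb at chr6:120370801-120371400, and in the flank, with 1.8 kb of E6 at chr6:120454001-120455800. Without bins near ends of other genes the ratio was 2.84, so the larger area was not confined to those ends.

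Kdm5b (chr1:134560178-134632878, plus strand) encodes a KDM5 demethylase studied in breast cancer and stem cells. Its TSS-type area was 12.8 kb in GSK-LSD1 and 9.2 kb in DMSO, a ratio of 1.39, and its E6 area of 3 and 2.2 kb was the only one of the 10 under 1.5 times. The start domain was 5 kb in GSK-LSD1 and 4.4 kb in DMSO. Upstream of the start, a region of E5 was 4.2 kb in GSK-LSD1 (chr1:134554001-134558200) and 1.6 kb in DMSO. A 0.8 kb E6 region inside the gene in DMSO (chr1:134630001-134630800) was E1 in GSK-LSD1.

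Kdm5c (chrX:152233198-152279102, plus strand) encodes the X-linked KDM5 demethylase, whose loss causes intellectual disability in humans. It was the gene that differed least: 94.9% of its bins had the same state in both segmentations, against 53.0% to 73.8% in the other 9 genes. Its only TSS-type region, the start domain, was 4.8 kb in GSK-LSD1 with 2.6 kb of E6, and 3.6 kb in DMSO, all E5, a ratio of 1.33. The 28.8 kb of background at its far end was the same in both.

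Kdm1b (chr13:47043373-47085279, plus strand) encodes LSD2, the relative of the inhibited enzyme. Its TSS-type area was 9.4 kb in GSK-LSD1 and 5.2 kb in DMSO, a ratio of 1.81. The start domain was 5.6 kb in GSK-LSD1 (chr13:47042001-47047600) and 3 kb in DMSO (chr13:47042601-47045600), and all of it was E5 in both. This was the only start or end domain of the 10 with no E6 in GSK-LSD1. Its 2.6 kb of E6 lay in a region at the window's edge, near an end of Dek, a chromatin protein gene. An end of Tpmt, the thiopurine methyltransferase gene, lay 161 bp from the start. Background covered 15.8 kb of the window in GSK-LSD1 and 47.2 kb in DMSO, and 25.8 kb of the DMSO background was E2 in GSK-LSD1. Among the 10 genes, E3 at least 1.5 times smaller was found only in Kmt2c and Kdm1b, 2 of 10, against 18.6% of all protein-coding genes and 24.8% of those with a TSS-type end.

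**Figure D2:**
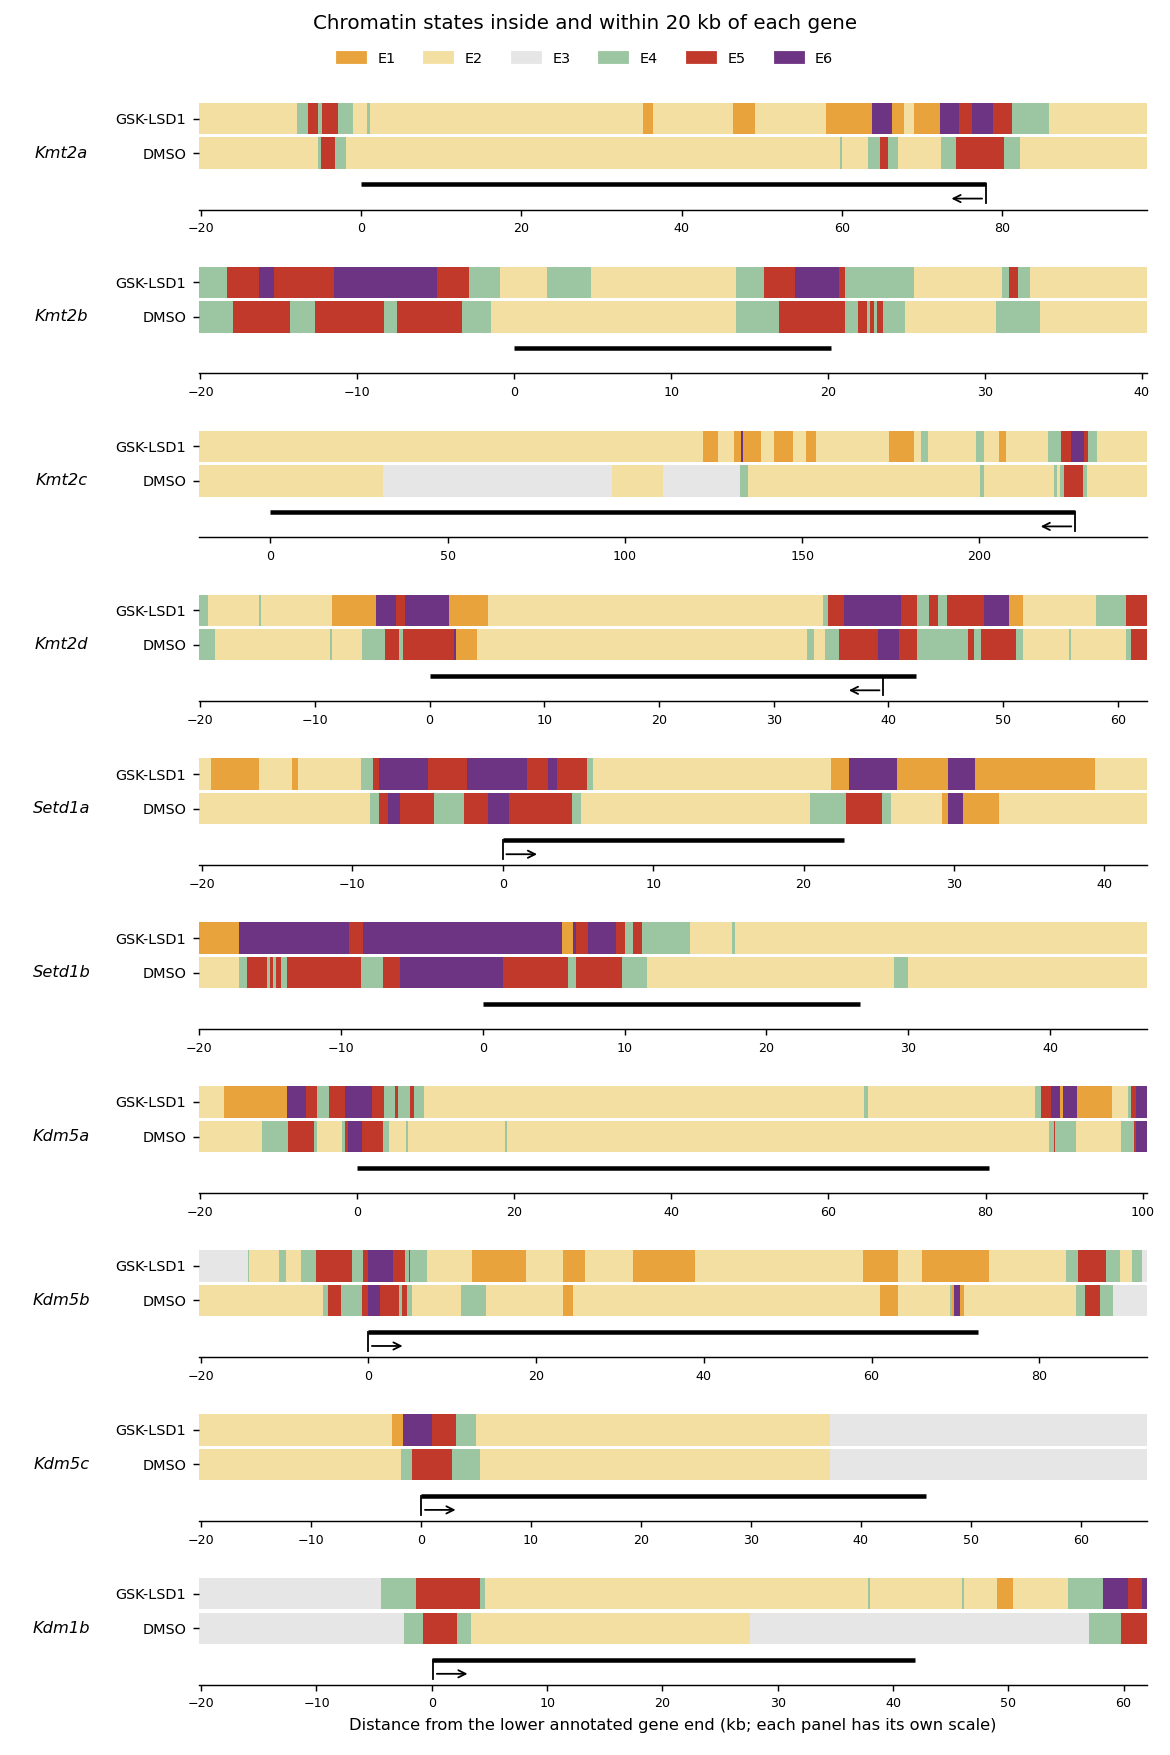
States of the 200 bp bins (colours) along each gene and its 20 kb flanks in GSK-LSD1 (upper track) and DMSO (lower track), as distance in kb from the lower annotated end. Black bars are the genes, arrows mark the start and direction of the 7 genes with a start in the reference. E6 lies over the starts of most genes in the upper track, E1 appears inside Kmt2a, Kmt2c and Kdm5b, and E3 fills parts of Kmt2c and Kdm1b in the lower track.

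The start or end domain was longer in GSK-LSD1 in 10 of 10 genes, as it was in 86.5% of the 12803 genes with such a domain in DMSO. Counting only E5, 1 of 10 was longer and 9 were shorter. The median length was 7.3 kb in GSK-LSD1 and 5.1 kb in DMSO in the H3K4 enzyme genes, against 5 and 3.4 kb over all those genes. Together the 10 domains covered 89 kb in GSK-LSD1 and 58.4 kb in DMSO. In each segmentation, 6 of the 10 domains had an end of another protein-coding gene in them or within 2.5 kb. These domains and their lengths can therefore not be assigned to the H3K4 enzyme genes alone. At the bin that holds the start, or the marked end of the 3 genes without one, 4 genes had E6 in GSK-LSD1 and E5 in DMSO (Kmt2a, Kmt2b, Kmt2c and Kdm5c). E6 was there in both at 4 others (Kmt2d, Setd1a, Setd1b and Kdm5a), and E5 in both at Kdm5b and Kdm1b. These last genes differ, because at Kdm5b E6 began at the bin just after the start in both segmentations. The Kdm5b domain held 3 kb of E6 in GSK-LSD1 and 1.4 kb in DMSO, and the Kdm1b domain held none in either. Among all genes with a known start, 50.3% of the 8613 starts at E5 in DMSO were at E6 in the treated cells, and 730 of 731 E6 starts stayed E6. E6 at the start in DMSO was found at 4.23% of all 17274 known starts, of which 29.5% were background. Among the 7 H3K4 enzyme genes with a known start it was found at 28.6%, at Kmt2d and Setd1a. The ends of Kmt2b, Setd1b and Kdm5a were taken because a TSS-type domain lay there, so they cannot be set beside these shares.

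**Figure D3:**
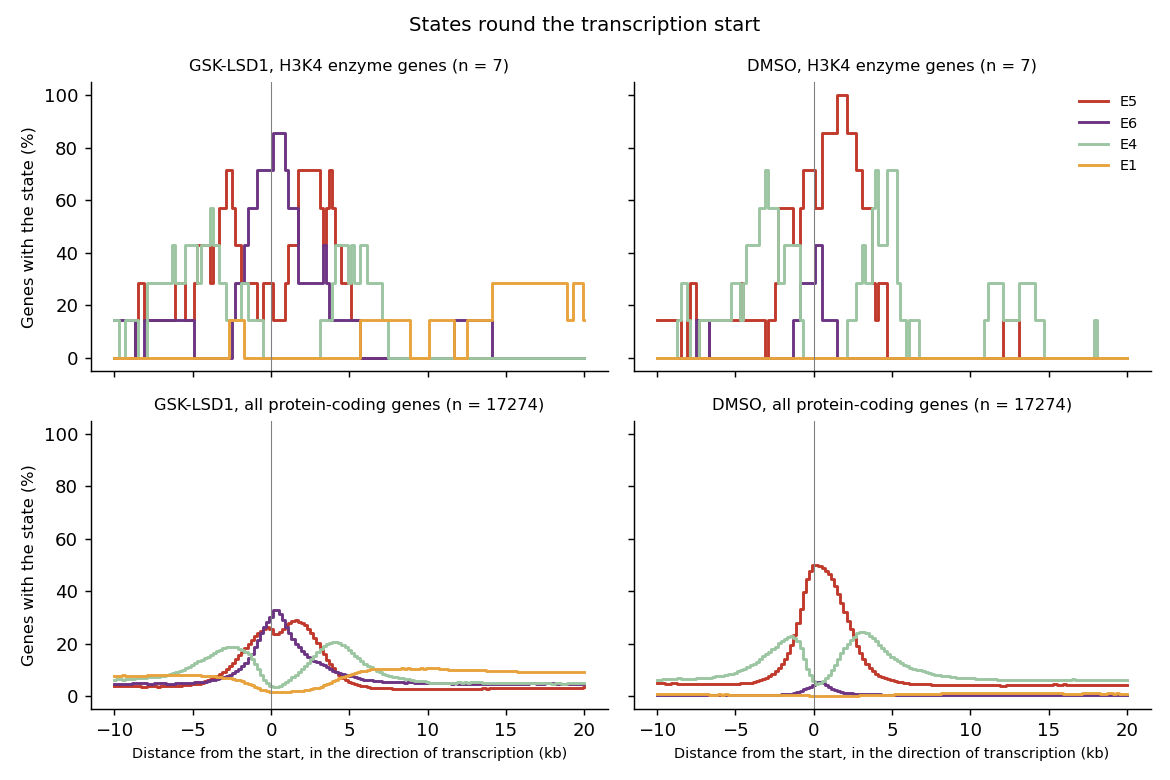
Percent of genes with state E5, E6, E4 or E1 at each distance (kb) from the start, in the direction of transcription, for the 7 H3K4 enzyme genes with a known start (top; 1 gene is 14.3%) and all protein-coding genes with one (bottom), in GSK-LSD1 (left) and DMSO (right). At the start bin E6 was at 71.4% of the 7 genes in GSK-LSD1 and 28.6% in DMSO, against 30.2% and 4.23% of all genes. These shares are not like for like. In DMSO all 7 genes had E5 or E6 at the start bin, whereas 29.5% of all starts were background. E5 flanks E6 on both sides in GSK-LSD1.

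The bins that were TSS-type in DMSO mostly stayed so. Of that area 110.4 kb, or 96.2%, was kept (95.9% in the genome), 4.4 kb left and 46.8 kb entered in GSK-LSD1. Of the area that entered, 38.2 kb, or 81.6%, had been E4, which flanks E5 in the DMSO tracks of the plot of states, and 7.8 kb had been E2; in the genome 71.0% came from E4. None had been background. Of the E5 area in DMSO, 59.0% had become E6 in the treated cells, against 51.3% in the genome. This share ranged widely, with 85.2% at Setd1b, 70.9% at Setd1a and 65.4% at Kmt2d at the high end, and 22.9% at Kdm5b and 19.2% at Kdm1b at the low end. The 6 methyltransferase genes lay between 45.5% and 85.2% and the 4 demethylase genes between 19.2% and 60.6%, so the ranges overlap.

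In GSK-LSD1, 30 runs of E6 in these windows had 58 borders, of which 63.8% were with E5 and 34.5% with E1, against 35.3% and 62.7% in the genome. In GSK-LSD1 E5 was thus the commoner neighbour of E6 at these genes, whereas E1 was the commoner one over the genome. The genome takes in sites away from gene ends, and no share over windows of other genes is given. The contrast is therefore not shown to be particular to these genes. In DMSO, 10 runs of E6 had 19 borders, of which 73.7% were with E5 and 26.3% with E1, against 62.1% and 34.4% in the genome, so that E5 was the commoner neighbour in both. Over all windows together, 64.3% of bins had the same state in both segmentations. The share over the genome, most of it background, was 81.8%. By gene window, the median share was 63.8% in the 10 genes and 68.1% over all protein-coding genes. The quartiles over all protein-coding genes were 48.1% and 93.8%, and the median of the 10 genes lay between them.

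State E1 gave the largest relative difference. It covered 115.2 kb of the windows in GSK-LSD1 and 8.6 kb in DMSO, a ratio of 13.4 (9.85 to 18.2), against 9.78 in the genome. With flanks of 50 kb the ratio was 8.22, below that of the genome, so the order of these ratios depends on the window. E1 was at least 1.5 times larger in 9 of 10 genes, against 45.3% of all protein-coding genes and 63.8% of those with a TSS-type end. The exception was Kmt2b, which had none in either segmentation. Most of it was E2 in DMSO: 85 kb, or 12.4% of the E2 area of these windows, against 17.0% in the genome. Where E1 lay differed between genes. At Kmt2c, 7 stretches of E1 covered 28.6 kb in GSK-LSD1 and none in DMSO, with centres 20.4 to 102.8 kb downstream of the start and a longest stretch of 7 kb. Kmt2a had 5 stretches of 14.6 kb in GSK-LSD1 and none in DMSO, centred 7.3 to 42.1 kb downstream. Kdm5b had 5 stretches of 28.6 kb in GSK-LSD1 and 4 stretches of 4 kb in DMSO, and those in GSK-LSD1 were centred 15.6 to 70 kb downstream. In these 3 genes all stretches had their centre inside the gene. At Setd1a, 1.2 of 16.2 kb in GSK-LSD1 was inside the gene, and 0 of 2.8 kb in DMSO. At Kdm5a the 12.8 kb in GSK-LSD1 lay wholly in the flanks, including 1 stretch of 8 kb, and DMSO had none. Kmt2d had 8.4 kb in GSK-LSD1 and 1.8 kb in DMSO; Setd1b, Kdm1b and Kdm5c had 3.6, 1.4 and 1 kb in GSK-LSD1 and none in DMSO.

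**Figure D4:**
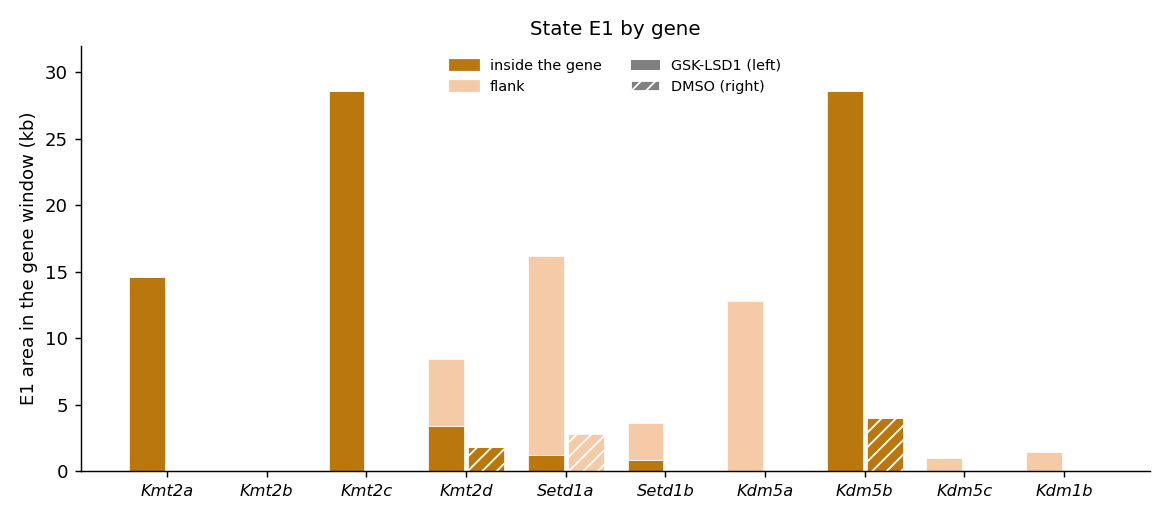
Area (kb) of state E1 in each gene's window in GSK-LSD1 (left bar, plain) and DMSO (right bar, hatched), split by whether the centre of the stretch lies inside the gene (dark) or in a flank (light); 1 segmentation per treatment. Kmt2c and Kdm5b reach 28.6 kb inside the gene in GSK-LSD1, and Kmt2b has none.

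With E1, E2 and the TSS-type states counted together with E4 as marked chromatin, 95.2% of the window bins were marked in GSK-LSD1 and 84.3% in DMSO. The difference was 10.9 percentage points, and 5.71 with 50 kb flanks. The difference lay almost wholly in Kmt2c and Kdm1b. E3 covered 51 kb in GSK-LSD1 and 166.4 kb in DMSO over all 10 windows, and in 7 of the 10 genes it covered the same area in both (47.9% of all protein-coding genes). In 6 of those 7 that area was 0 kb, and Kdm5c held 28.8 kb. Kdm5b had more, 6.4 kb in GSK-LSD1 and 4 kb in DMSO, and was the only one of the 10 genes at least 1.5 times larger in E3. No share over all genes is given for this count. In GSK-LSD1, 5.8 kb of it was 1 stretch in the upstream flank that was E2 in DMSO. Of the E3 area in DMSO, 107.4 kb, or 64.5%, was E2 in GSK-LSD1, against 8.30% in the genome. Kmt2c gave 80.2 kb of this and Kdm1b 25.8 kb. The genome share covers all background, also far from genes, and no share over windows of other genes is given.

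A partner list, mostly genes for subunits that work with these enzymes but also the related genes Kmt2e and Setd7, the gene of another H3K4 methyltransferase, was read in the same way, as was a list for LSD1 and its CoREST complex. Of the 18 genes in the partner list, 18 had a larger TSS-type area in GSK-LSD1 and 3 reached 1.5 times, with a median change of 2.2 kb. With 50 kb flanks 9 of 18 reached 1.5 times (38.1% of all protein-coding genes and 47.7% of those with a TSS-type end). Without bins near other ends 5 of 18 did. The gene with the largest change was Hcfc2, whose paralogue HCFC1 is a subunit of SETD1 complexes, at 22.8 kb in GSK-LSD1 and 11.2 kb in DMSO. Kmt2e, a relative of the KMT2 genes without clear methyltransferase activity, had 20.6 and 12.8 kb. Pagr1a, a subunit of KMT2C and KMT2D complexes, had 22.2 kb in GSK-LSD1 and 15.8 kb in DMSO, and Dpy30, a core subunit, had 18 and 12.2 kb. The remaining gene that reached 1.5 times, Wdr5, also a core subunit, had 11.2 kb in GSK-LSD1 and 5.6 kb in DMSO; it was named after its values were seen. Of 12 genes of LSD1 and CoREST, 12 had a larger area and 5 reached 1.5 times, with a median change of 2.9 kb. With 50 kb flanks 8 of 12 reached it, with treated regions shortened by 1 bin at each side 3 of 12, and with a limit of 2-fold 2 of 12. Large changes were at Gse1 (94.2 kb in GSK-LSD1 and 60 kb in DMSO), Hmg20b (19.6 kb in GSK-LSD1 and 9.2 kb in DMSO) and Hdac1 (15.4 kb in GSK-LSD1 and 7 kb in DMSO), genes of subunits found with LSD1. Kdm1a, the gene of the inhibited enzyme itself, also reached 1.5 times, with 4.8 kb in GSK-LSD1 and 2.8 kb in DMSO, and was named after its values were seen. Over all protein-coding genes, 66.8% had a larger area with the 20 kb flanks and 33.3% reached 1.5 times. Over those with a TSS-type end the shares were 93.7% and 44.6%. For the settings without bins near other ends, with shortened regions or with the 2-fold limit, no such share is given here. With E5 alone as TSS-type, 0 of the 18 partner-list genes were at least 1.5 times larger and 9 smaller. Of the 12 LSD1 and CoREST genes, 1 was larger and 3 smaller. An E5 area at least 1.5 times smaller was found in 23.8% of all genes and 35.4% of those with a TSS-type end.

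For each gene the protein-coding gene with the most similar windows was found by the shares of the 6 states in both segmentations, as the sum of 12 absolute differences between shares (0 would mean equal shares). Kmt2c was closest to Supt3, at 0.0631, which had 43.6 kb of E1 in GSK-LSD1 and none in DMSO. Kmt2a was closest to Ddhd2 (0.0829), Kdm5c to Rpp30 (0.125), Kdm5a to Srrm1 (0.134), Kdm1b to Taf2 (0.143), Kmt2b to Serf2 (0.149), Setd1a to Zer1 (0.162) and Kmt2d to Trp53inp1 (0.167). The least closely matched were Setd1b, with Zbtb7b at 0.218, and Kdm5b, with Dcakd at 0.253.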

How the data were processed

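The deposited files hold 1 state label (E1 to E6) per segment and treatment, not counts, per the file contents; the authors combined 3 marks for each, per the labels. Per the submitters' processing notes, reads were handled with Bowtie on mm10 (GRCm38). For the segmentation tool, its settings, the use of the input and the marks behind a state, the sources used here give nothing. A state is a thresholded call, so library depth and precipitation quality can move it.

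Segments (162731 in GSK-LSD1, 136061 in DMSO) were expanded to 200 bp bins with Python 3.11.15 and NumPy 2.4.6, and plotted with Matplotlib 3.10.9. Gene positions, starts and promoters came from RefSeq (GRCm38). Background is the state with the largest coverage in DMSO; TSS-type states have at least 5.5 times their genome share at gene ends there. Ratios set areas under 600 bp (3 bins) to 600 bp per gene. Domains are runs of TSS-type bins at, or within 2 kb of, a start or end. Intervals are Wilson for shares and Katz for ratios of shares, at 95%. Both treat bins as independent, although neighbouring bins often lie in the same run of a state. The Katz intervals also ignore that the same bins were read in both segmentations. The counting of bins was checked on simulated data. TSS-type bins were written into the windows of 200 of the 21631 genes in a copy of DMSO, and the counts for 200 of 200 rose by the number written. This checks the code only and does not measure how well a real difference would be found.

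Genes named are the 10 enzyme genes, the 4 largest changes in TSS-type area in each list, and the closest gene to each enzyme gene; additions are marked in the text, and some genes the rule takes are left out of it. The genes and lists were chosen with earlier results of these data known. Alternatives varied the flanks, short segments, ends of other genes, the TSS-type states, the fold limit, region edges and chromosome X.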

Additional observations from a re-analysis of the deposited data

How the results depend on the processing

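Of 63 alternative values, 40 stayed near the main ones, 18 moved and 5 turned round. Near means within the 95% counting interval of a main ratio or share, or within 1.5 times a main count. All 5 that turned round used E5 alone as TSS-type. The area ratio was then 0.695; 0 of the 10 genes were at least 1.5 times larger and 5 smaller, 0 of 18 partner genes larger and 9 smaller, and 1 of 12 LSD1 and CoREST genes larger and 3 smaller; 1 start or end domain was longer in GSK-LSD1 and 9 were shorter. By construction, E5 bins that were E6 in GSK-LSD1 count as lost in that setting. With the gene body only, the TSS-type ratio was 1.22 and the difference in marked share 15.3 percentage points (main value 10.9). That difference was 14.2 with 5 kb flanks, 5.71 with 50 kb flanks, 12.5 without bins near ends of other genes and 12.9 with E2 as background too. The E6 ratio was 3.97 with 5 kb flanks, 6.67 with 50 kb flanks and 7.73 without bins near other ends. With 50 kb flanks the E1 ratio was 8.22 and the E5 ratio 0.822, and 9 partner genes and 8 LSD1 and CoREST genes reached 1.5 times. Without bins near other ends, 5 of the 10 genes (Kmt2b and Kdm5b in addition) and 5 partner genes did. With a limit of 2-fold, 0 of the 10 genes and 2 LSD1 and CoREST genes passed, and with treated regions shortened by 1 bin at each side 3 LSD1 and CoREST genes did. No share over all genes is given for the settings without bins near other ends, with the 2-fold limit or with shortened regions. Except where the setting itself shows it, the cause was not tested. Bins were matched by position between the segmentations, but no pairing of replicates was possible because there is 1 segmentation per treatment. The depth of the libraries is unknown, and no difference given here has a replicate check.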
